A study of Mus musculus with 6 samples.

Results

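The TRIM genes were examined in libraries that the paper describes as sorted tumor γδ T cells. Interferon-induced members were set against the rest of the family. Of 68 gene symbols in the count table that are spelled Trim, a number and at most a letter from a to d, 45 were selected on their summed read count, at least 60 over the 6 libraries. Of the other symbols 14 had 1 to 59 reads and 9 had none. The least counted member was Trim17 with 81 reads, and the next symbol below the minimum was Trim40 with 52. Trim38 and Trim69, described as interferon-responsive in some cells, had 5 and 7 reads. By a list written from general knowledge, 13 of the 45 members were interferon-induced and 32 were not. Both the members and the lists were chosen with earlier results of these data known.

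The libraries came from KitV558del/+ mice on a C57BL/6J background, 8 to 10 weeks old. Vehicle and imatinib are represented by 3 libraries each. All mice carry 1 activated Kit allele in every tissue and develop an intestinal GIST. Imatinib, an inhibitor of KIT and a few related kinases, was given in the drinking water for 1 week. The paper describes a sort of CD45+ CD3+ NK1.1- TCRγδ+ tumor cells, whereas the series text names regulatory T cells, and no label ties a library to its own mouse. P-values therefore measure the spread between libraries, which may be technical.

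Counts of named genes totalled 21333897 to 25214210 per library. Levels are given as CPM, read counts relative to the library total (the usual CPM unit) after TMM scaling of the libraries. The δ chain gene Trdc was present at 373 to 1237 CPM in every library, and Foxp3, which defines regulatory T cells, at 0 to 0.775 CPM. RNA of other cells was also present. The macrophage gene C1qa and the B and plasma cell gene Igkc had higher mean levels than Trdc in both groups. In imatinib 1, C1qa was below Trdc. Trdc rose (log2 change of 1.01, adjusted p = 0.0274 in edgeR's quasi-likelihood test over all genes), as did the αβ chain gene Trac (32.1 to 48.9 CPM, adjusted p = 0.0456) and the tumor gene Kit (20.5 to 133 CPM, adjusted p = 0.0173). Trdc lost its call without vehicle 1, vehicle 3, imatinib 1 and imatinib 3 (adjusted p = 0.0928, 0.0594, 0.0796 and 0.0775, in that order). Trac lost its call without vehicle 1, vehicle 2, vehicle 3, imatinib 1 and imatinib 3 (adjusted p = 0.127, 0.0869, 0.142, 0.107 and 0.125, in that order). Kit lost its call without vehicle 1, vehicle 2, vehicle 3 and imatinib 3 (adjusted p = 0.0653, 0.07, 0.0721 and 0.0565, in that order). Scaled to the CD3 genes, Trac turned negative (log2 change of -0.13) and Trdc did not pass (adjusted p = 0.517). With no filter on low counts Trdc and Kit had adjusted p = 0.101 and 0.0504, and with library totals Trac had 0.0733. Col1a1 of fibroblasts was at 21 to 62.9 CPM on vehicle and 94.3 to 167 on imatinib, S100a8 of neutrophils at 2.29 to 64 over all libraries, Igkc of B and plasma cells at 2613 to 22318 and Epcam of epithelium at 25.8 to 58.6. None of them was called in edgeR's test with TMM scaling over all libraries. With DESeq2, Col1a1 and S100a8 were higher (adjusted p = 0.0224 and 0.00723). Col1a1 also passed without vehicle 1 (0.0466), and S100a8 without imatinib 2 (0.0306) and with scaling to the CD3 genes (0.0162). The macrophage gene C1qa was at 3128, 2461 and 3073 CPM in vehicle 1, 2 and 3 and 1092, 2435 and 1851 CPM in imatinib 1, 2 and 3 and did not pass the test. It passed as lower on imatinib without imatinib 2 (adjusted p = 0.0262), with DESeq2 (0.0286) and with scaling to the CD3 genes (0.011). The part of these cells in the TRIM results was not tested. In such bulk samples, fewer cells of a type and less RNA per cell cannot be told apart.

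TRIM proteins share an N-terminal tripartite motif of a RING finger, B-boxes and a coiled coil. The RING finger gives most of them ubiquitin ligase activity, and the C-terminal domain, most often PRY-SPRY, picks the target. Several members are induced by interferons and act in antiviral defence, either on the virus or on the sensors and adaptors that lead to interferon production. Others silence retroelements, regulate nuclear receptors or bind microtubules and do not depend on interferon. Trim14, Trim16 and Trim44 lack a RING finger, so the family name of ubiquitin ligase does not hold for every member.

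Interferon drives transcription through ISGF3 and IRF factors, which bind the interferon-stimulated response element. A short core of it, GAAA and a further GAAA with any 2 bases between them, was searched on both strands from 250 bases before to 50 after each annotated start, in the 34 of 45 members that have a RefSeq promoter (build GRCm38.p6). The motif was found in 8 of 12 interferon-induced members (66.7%) and in 1 of 22 others (4.55%). Among all 27025 genes with a promoter it was found in 1079 (3.99%), and among 24 interferon-induced genes outside the family in 11 (45.8%). The windows that follow are shown because they hold these matches; each is 30 bases, 5′ to 3′ on the gene's strand, with the matching bases in capitals. A match on the other strand reads TTTC, any 2 bases, TTTC.
Trim30a (chr7:104465210-104465239, minus strand): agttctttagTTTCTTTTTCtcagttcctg
Trim30d (chr7:104507871-104507900, minus strand): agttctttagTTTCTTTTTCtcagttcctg
Trim5 (chr7:104288136-104288165, minus strand): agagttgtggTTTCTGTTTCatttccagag
Trim12a (chr7:104315466-104315495, minus strand): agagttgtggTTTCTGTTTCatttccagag
Trim12c (chr7:104353359-104353388, minus strand): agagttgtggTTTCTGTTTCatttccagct
Trim34a (chr7:104244457-104244486, plus strand): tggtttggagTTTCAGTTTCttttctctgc
Trim21 (chr7:102565447-102565476, minus strand): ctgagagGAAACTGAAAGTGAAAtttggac
Trim26 (chr17:36836979-36837008, plus strand): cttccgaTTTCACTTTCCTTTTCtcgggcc
Trim2 (chr3:84212791-84212820, minus strand): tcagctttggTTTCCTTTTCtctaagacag

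The 30 bases were identical in Trim5 and Trim12a, and in Trim30a and Trim30d, so each pair holds the same sequence and not separate occurrences. The bases of Trim12c differed from those of Trim5 and Trim12a only at the 3′ end, so its match is nearly the same sequence. The match began at position -36 relative to the start in Trim30a (the first of its 2 annotated starts), -41 in Trim30d, -49 in Trim5 and -29 in Trim12c, and at position 11 after it in Trim12a and Trim34a. Trim21 and Trim26 each held 2 overlapping matches, the first at positions 14 and -160. The single match outside the interferon-induced group lay in Trim2, at position 29. No match was found in the windows of Trim25, Trim30b, Trim30c and Trim34b. Trim3, Trim8, Trim11, Trim14, Trim16, Trim17, Trim33, Trim35, Trim36, Trim55 and Trim65 were not searched. A match is a run of letters and does not show that a factor binds there.

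Of the 13 interferon-induced members, 9 lie side by side on chromosome 7, in a stretch of 289.1 kb that also holds Trim6 (from 104218793 to 104507849, GRCm38). In genome order these are Trim6, Trim34a, Trim5, Trim12a, Trim34b, Trim12c, Trim30b, Trim30c, Trim30a and Trim30d. Trim21 also lies on chromosome 7 (from 102557921 to 102565486), Trim25 on chromosome 11 from 88999376 to 89020293, Trim26 on chromosome 17 from 36837134 to 36859398 and Trim14 on chromosome 4 from 46493781 to 46536141. Reads of close relatives can be split between them. Of the distinct 50-base words in the Trim30a transcripts, 5.9% also occur in Trim30d, and 7.96% of those of Trim12c and 7.27% of those of Trim5 occur in other genes. Trim14 shares 38% of its exon length with other genes, mainly Nans on the opposite strand, and Trim34a shares 23.5% with Gm47248. Values of these genes are uncertain to that extent, since how the counting handled strand and ambiguous reads is not known.

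In vehicle libraries the most abundant TRIM transcript per exon length was Trim30a, at 56.9 ± 1.79 CPM per kb (SD, n = 3). Trim28, the corepressor that KRAB zinc finger proteins recruit to silence retroelements, followed at 41.8 ± 4.06. Every vehicle library had more Trim30a than any had Trim28. Trim8 (28.4 ± 2.41), Trim25 (27.6 ± 1.25) and Trim30d (26.6 ± 1.36) came next and overlapped each other. On imatinib the order at the top was the other way round. Trim28 was at 39.1 ± 1.48 CPM per kb and Trim30a at 28 ± 5.52, with no overlap between their libraries. At the lower end Trim2, Trim45, Trim17 and Trim6 were at 0.147 to 0.258 CPM per kb on vehicle. These lengths come from GENCODE M21, which may not be the annotation used for counting.

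**Figure D1:**
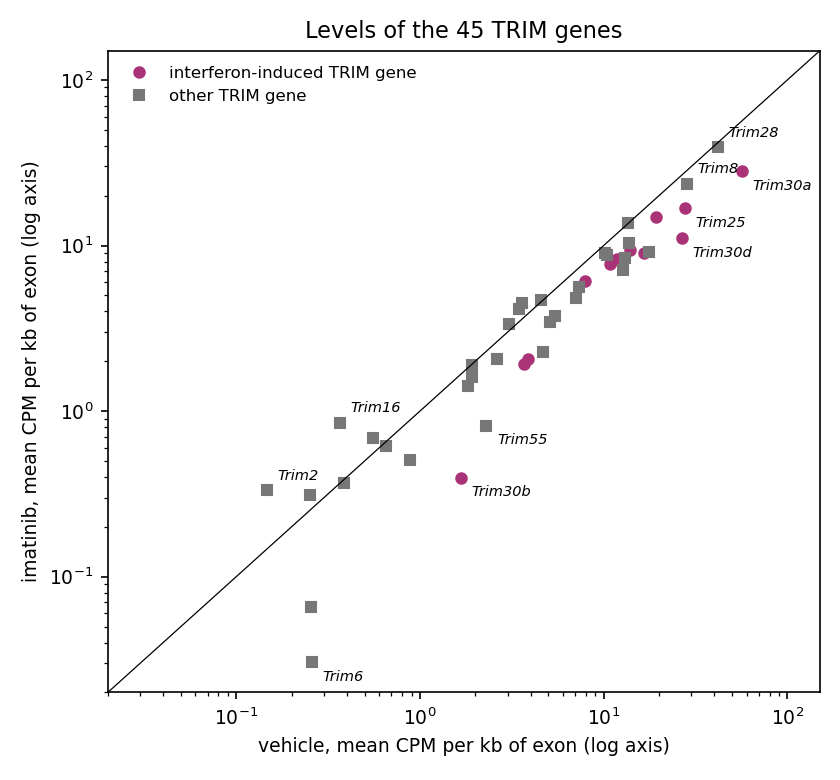
Mean level of each of the 45 TRIM genes on vehicle (horizontal axis) and imatinib (vertical axis), in CPM per kb of exon on log axes, with circles for interferon-induced genes, squares for the others and a line at equal levels. All 13 interferon-induced genes lie below the line, and Trim28 lies close to it at 41.8 and 39.1 CPM per kb.

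Interferon-induced TRIM genes were lower on imatinib. Of the 13, 8 fell, none rose and 5 did not pass the test, around a median log2 fold change of -0.72 (edgeR's quasi-likelihood test over all 16621 genes tested, adjusted p under 0.05). Of all genes tested, 8.42% were called lower and 6.15% higher, and their median was 0.014. Scaled to the Cd3d, Cd3e and Cd3g counts instead, 4678 genes were lower and 135 higher against 1399 and 1022 with TMM, all 13 interferon-induced members were lower, and the median of all genes was -0.72. Without imatinib 3, 5 of the 13 fell. Every one of the 13 had a negative log2 fold change, as did 48.8% of all genes tested. In 11 of the 13 each imatinib library lay below each vehicle library, which held for 20.2% of all genes tested. All 45 members passed the filter on low counts. The direction was negative for all 13 under each other scaling tried.

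The Trim30 genes stand in a row at 1 end of the cluster. Trim30a, which in mouse macrophages restrains Toll-like receptor signalling by degrading adaptors of NF-κB activation, was at 239, 226 and 238 CPM in vehicle 1, 2 and 3 and 101, 141 and 103 CPM in imatinib 1, 2 and 3. It fell from 234 ± 7.36 to 115 ± 22.7 CPM (SD, n = 3, log2 change of -1.02, SE 0.14, adjusted p = 0.00671), and the lowest vehicle library was well above the highest imatinib library. Trim30d was at 97, 106 and 97.2 CPM in vehicle 1, 2 and 3 and 33.9, 53.1 and 38.1 CPM in imatinib 1, 2 and 3. It fell, again with a gap between the groups (log2 change of -1.26, SE 0.17, adjusted p = 0.00571). Trim30b had the steepest drop of the group and low counts. It was at 9.55, 16.6 and 11.8 CPM in vehicle 1, 2 and 3 and 3.03, 3.02 and 2.9 CPM in imatinib 1, 2 and 3 (log2 change of -2.08, SE 0.25, adjusted p = 0.00512), so the 3 imatinib libraries were close together and the vehicle libraries were spread. Trim30c, at 6.65, 3.32 and 9.08 CPM on vehicle and 2.58, 4.6 and 2.72 on imatinib, overlapped between groups and did not pass the test (log2 change of -0.95, SE 0.41, adjusted p = 0.154). Vehicle 2 was the low vehicle library for Trim30c and the high one for Trim30b. The falls of Trim30a, Trim30b and Trim30d were called with any single library left out (adjusted p of at most 0.0338, 0.0281 and 0.032).

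The Trim34 genes and the Trim5 relatives fill the rest of the cluster beside Trim6. Trim34a was at 38.8, 43.1 and 46.5 CPM in vehicle 1, 2 and 3 and 21.9, 22.6 and 25.1 CPM in imatinib 1, 2 and 3. It fell from 42.8 ± 3.81 to 23.2 ± 1.7 CPM (log2 change of -0.88, SE 0.12, adjusted p = 0.00666), and was called with any single library left out (adjusted p of at most 0.0283). Trim34b, at 5.47, 7.63 and 8.44 CPM on vehicle and 3.84, 3.51 and 4.1 on imatinib, also fell (log2 change of -0.91, SE 0.26, adjusted p = 0.0467), with a gap between the groups. Primate TRIM5 blocks incoming retroviral capsids, and Trim5, Trim12a and Trim12c are its mouse relatives. Trim12a was at 59.5, 69.7 and 61.4 CPM on vehicle and 40.5, 49.2 and 48.7 on imatinib and fell (log2 change of -0.46, SE 0.12, adjusted p = 0.0384). Trim12c was at 68.7, 68.7 and 78.6 CPM on vehicle and 47.1, 70.2 and 49.8 on imatinib (log2 change of -0.37, SE 0.16, adjusted p = 0.154). Imatinib 2 overlapped the vehicle libraries for Trim12c. Trim5 was at 24.9, 32.4 and 30.1 CPM on vehicle and 20.3, 22.6 and 24.9 on imatinib (log2 change of -0.37, SE 0.14, adjusted p = 0.121), where vehicle 1 and imatinib 3 nearly touched, and was not called. Trim34b lost its call without any 1 of vehicle 1, vehicle 2, vehicle 3, imatinib 1, imatinib 2 and imatinib 3 (adjusted p = 0.0601, 0.137, 0.155, 0.0912, 0.0754 and 0.102, in that order). Trim12a lost its call without vehicle 1, vehicle 2, vehicle 3, imatinib 1 and imatinib 3 (adjusted p = 0.0737, 0.127, 0.0891, 0.0882 and 0.0816, in that order). Without imatinib 2, Trim12c passed (adjusted p = 0.0151).

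Trim25, Trim26, Trim21 and Trim14 lie outside that cluster. Trim25, which attaches ubiquitin to the RNA sensor RIG-I and also transfers ISG15, was at 154, 156 and 167 CPM in vehicle 1, 2 and 3 and 84.3, 114 and 91 CPM in imatinib 1, 2 and 3. It fell from 159 ± 7.17 to 96.5 ± 15.8 CPM (SD, n = 3, log2 change of -0.72, SE 0.13, adjusted p = 0.0129). Trim26, a ligase encoded beside the MHC class I genes, was at 93.2, 96.7 and 96 CPM on vehicle and 60.3, 62.8 and 69.6 on imatinib. It fell, and the groups were apart (log2 change of -0.57, SE 0.099, adjusted p = 0.0117). Trim21, a cytosolic receptor for antibody bound to viruses, was at 41.1, 39.6 and 39.9 CPM on vehicle and 26.3, 34.8 and 25.2 on imatinib (log2 change of -0.48, SE 0.14, adjusted p = 0.0558). Trim14, an adaptor at the mitochondrial signalling protein MAVS, was at 55, 51 and 48 CPM on vehicle and 30.4, 43.6 and 33.5 on imatinib (log2 change of -0.52, SE 0.15, adjusted p = 0.0506). Neither Trim21 nor Trim14 passed, although every imatinib library was below every vehicle library in both. Trim26 was called with any single library left out (adjusted p of at most 0.0468). The call of Trim25 was lost without imatinib 3 (adjusted p = 0.0572). Without imatinib 2, Trim14 and Trim21 had adjusted p = 0.00901 and 0.0107. With DESeq2 they had 0.021 and 0.0307, and with limma voom 0.0196 and 0.0209. Both also passed with library totals, scaling to the CD3 genes and no filter on low counts. With a block for replicate number they did not pass (0.108 and 0.112), and Trim25 and Trim26 lost their calls (0.0504 and 0.0553).

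**Figure D2:**
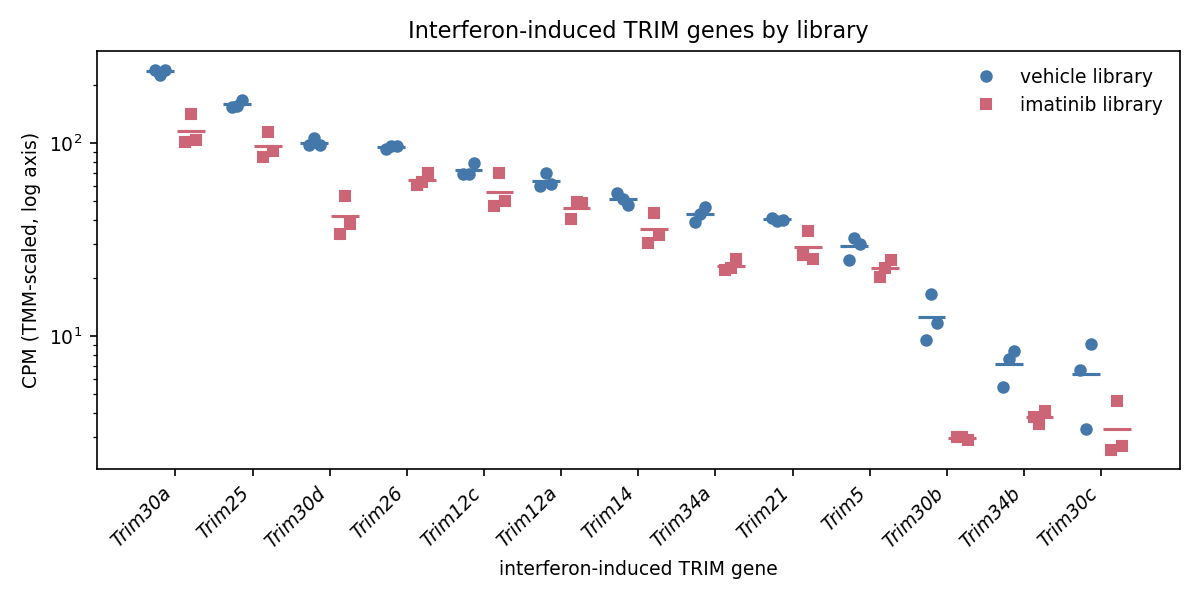
Level of each of the 13 interferon-induced TRIM genes in every library, in TMM-scaled CPM on a log axis, with circles for the 3 vehicle libraries, squares for the 3 imatinib libraries and a line at each mean. The groups overlap in Trim12c and Trim30c and are apart in the other 11 genes.

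The summed level of the group was lower in every imatinib library, least so in imatinib 2. Summed over the 13 genes the level was 893, 916 and 932 CPM in vehicle 1, 2 and 3 and 476, 626 and 519 CPM in imatinib 1, 2 and 3. Summed over the 32 other members it was 1065, 1030.2 and 1029.9 CPM on vehicle and 830.1, 864 and 866 CPM on imatinib. This second sum was also lower in every imatinib library. As a share of all TRIM reads, which no scaling factor touches, the interferon-induced genes held 45.6%, 47.1% and 47.5% on vehicle and 36.4%, 42.0% and 37.5% on imatinib (46.7% ± 1.00 and 38.6% ± 2.96, SD, n = 3). These shares rest on 28890 to 47985 TRIM reads per library. The summed level of 13 macrophage and monocyte markers was 10722.6 to 14064 CPM on vehicle and 6375 to 11861 CPM on imatinib, with overlap. C1qa was lowest in imatinib 1 and highest, among imatinib libraries, in imatinib 2. None of the 13 markers was at 0 in all libraries. With edgeR and TMM scaling over all libraries, none was called lower and 2 were called higher, around a median log2 fold change of -0.43. Their part in the TRIM result was not tested.

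**Figure D3:**
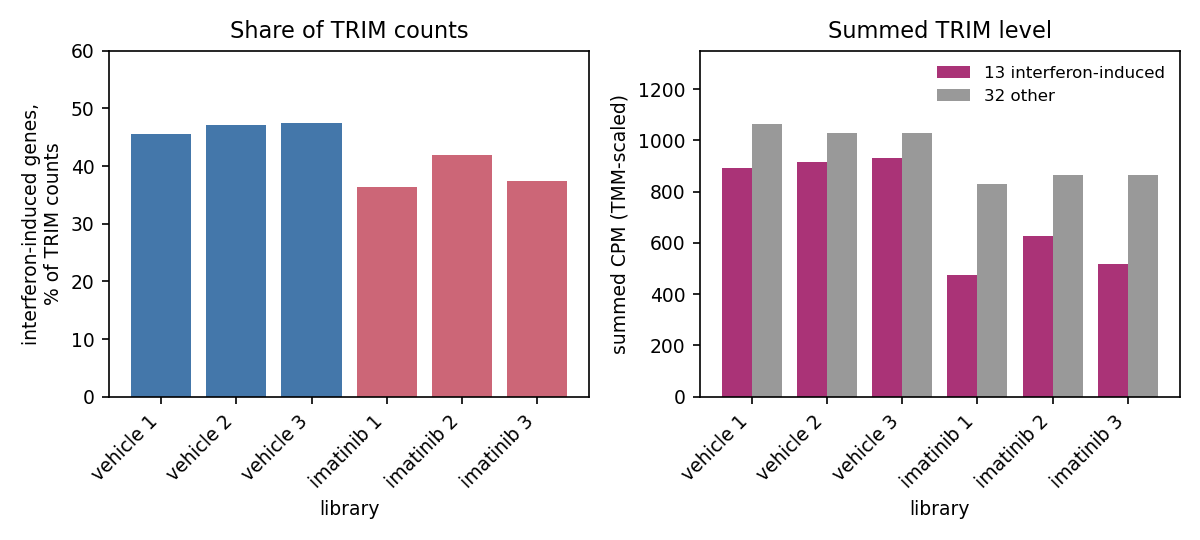
Left, the share of all TRIM reads held by the 13 interferon-induced genes in each library, in percent; right, the summed TMM-scaled CPM of the 13 interferon-induced and the 32 other TRIM genes in each library. The share lies between 45.6% and 47.5% on vehicle and between 36.4% and 42.0% on imatinib.

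Of the 32 other TRIM genes, 7 fell, none rose and 25 did not pass the test, around a median log2 fold change of -0.27. The share called lower was 21.9%, against 61.5% of the interferon-induced members and 8.42% of all genes tested. The groups did not overlap in 16 of the 32, 14 with imatinib below and 2 with imatinib above, against 20.2% and 17.5% of all genes tested. Without vehicle 1, vehicle 2, vehicle 3, imatinib 1 and imatinib 3 in turn, 3, 2, 3, 4 and 2 of the 32 fell. With scaling to the CD3 genes 17 did, against 4678 of all 16621 genes tested. A difference between the interferon-induced and the other members was not tested.

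The 7 that fell come from several branches of the family. Trim55, a muscle ring finger protein of the sarcomere, was at 5.18, 5.09 and 8.09 CPM on vehicle and 2.03, 3.02 and 1.47 on imatinib (log2 change of -1.49, SE 0.36, adjusted p = 0.0297). Trim39, encoded in the MHC region on chromosome 17, was at 28.9, 47.5 and 25.4 CPM on vehicle and 17.9, 15.4 and 15.6 on imatinib (log2 change of -1.05, SE 0.23, adjusted p = 0.0233), with vehicle 2 far above the other libraries. Trim11, a PRY-SPRY ligase on chromosome 11, was at 42.1, 49.6 and 45.7 CPM on vehicle and 21.3, 31.1 and 24.3 on imatinib (log2 change of -0.84, SE 0.16, adjusted p = 0.0138). Trim41, another PRY-SPRY member on chromosome 11, was at 42.9, 44.9 and 49.7 CPM on vehicle and 28.8, 28.7 and 31 on imatinib (log2 change of -0.64, SE 0.11, adjusted p = 0.0119) and was called with any single library left out (adjusted p of at most 0.0496). Trim36, which binds microtubules, was at 24.6, 23.9 and 27 CPM on vehicle and 15.8, 18.4 and 16.7 on imatinib (log2 change of -0.57, SE 0.13, adjusted p = 0.0253). Trim24, a coregulator of nuclear receptors also called TIF1α, was at 45.2, 49.6 and 44.9 CPM on vehicle and 31.4, 27.8 and 36.9 on imatinib (log2 change of -0.54, SE 0.13, adjusted p = 0.0313). Trim44, which carries a ubiquitin-binding zinc finger in place of the RING, was at 77.8, 78.4 and 75.3 CPM on vehicle and 65.2, 53.5 and 57.2 on imatinib (log2 change of -0.40, SE 0.11, adjusted p = 0.0423). In all 7 each imatinib library lay below each vehicle library. Trim55 lost its call without vehicle 1, vehicle 2, vehicle 3, imatinib 1 and imatinib 3 (adjusted p = 0.0682, 0.067, 0.106, 0.0639 and 0.0874, in that order). Trim39 lost its call without imatinib 3 (adjusted p = 0.0804). Trim11 lost its call without vehicle 2 and imatinib 3 (adjusted p = 0.0547 and 0.0574, in that order). Trim36 lost its call without vehicle 1, vehicle 2, vehicle 3, imatinib 1 and imatinib 3 (adjusted p = 0.0737, 0.0672, 0.0913, 0.0591 and 0.0767, in that order). Trim24 lost its call without vehicle 1, vehicle 2, vehicle 3 and imatinib 1 (adjusted p = 0.0716, 0.102, 0.0756 and 0.0659, in that order). Trim44 lost its call without vehicle 1, vehicle 2, vehicle 3, imatinib 2 and imatinib 3 (adjusted p = 0.105, 0.117, 0.0998, 0.0692 and 0.114, in that order).

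Among the 32 other members, the 6 most counted without a call had log2 changes of -0.27 to 0.026. Trim28 was at 193, 160.2 and 168 CPM on vehicle and 163, 156 and 168 on imatinib (log2 change of -0.095, SE 0.11, adjusted p = 0.587). Trim33, the third TIF1 protein and a partner of Smad signalling, was at 44.8, 43.8 and 46.1 CPM on vehicle and 49.7, 43.3 and 44.1 on imatinib (log2 change of 0.026, SE 0.11, adjusted p = 0.9). Of the 3 TIF1 members measured, only Trim24 passed, and none did without vehicle 1, vehicle 2, vehicle 3 or imatinib 1. Trim35 was at 63.5, 62.1 and 62 CPM on vehicle and 58.6, 62.4 and 68.5 on imatinib (log2 change of 0.015, SE 0.10, adjusted p = 0.939), and Trim27 at 55.7, 56.8 and 54.5 CPM on vehicle and 45.1, 53.8 and 50.5 on imatinib (log2 change of -0.16, SE 0.11, adjusted p = 0.345). Trim8, which acts on SOCS1 and NF-κB signalling, was at 113, 95.4 and 108 CPM on vehicle and 70.4, 101 and 91.6 on imatinib (log2 change of -0.26, SE 0.15, adjusted p = 0.253). Trim56, which modifies the DNA sensing adaptor STING, was at 103, 93.6 and 95.5 CPM on vehicle and 84.3, 72.7 and 85.7 on imatinib (log2 change of -0.27, SE 0.11, adjusted p = 0.124). The groups overlapped for Trim28, Trim33, Trim35 and Trim8 and were apart for Trim27 and Trim56.

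A further 19 members without a call had log2 fold changes from -3.01 to 1.21. The extremes were thinly counted. Trim6, the first gene of the chromosome 7 cluster, had 21, 37 and 29 reads on vehicle and 5, 0 and 5 on imatinib (log2 change of -3.01, adjusted p = 0.0531). Trim17 had 25, 25 and 16 reads on vehicle and 1, 13 and 1 on imatinib (log2 change of -1.96, adjusted p = 0.21). Most reads of Trim6 and Trim17 came from the vehicle libraries, so the minimum of 60 reads favoured genes lower on imatinib here. Nothing is read from their p-values taken alone. Both genes are still counted among the other members with imatinib below vehicle, and in the median of the other members. Both are also in the counts of members called lower with scaling to the CD3 genes or without imatinib 2. Trim6 is in the DESeq2 counts as well. Trim16, which lacks a RING and is known for its part in clearing damaged lysosomes, was at 1.55, 2.23 and 1.25 CPM on vehicle and 4.61, 3.71 and 3.34 on imatinib (log2 change of 1.21, SE 0.36, adjusted p = 0.0546). It was above every vehicle library in all 3 imatinib libraries. Trim2, a neuronal ligase of the NHL branch, was at 1.92, 3.41 and 3.36 CPM on vehicle and 13.2, 1.73 and 4.81 on imatinib (log2 change of 1.18, adjusted p = 0.277), so its higher mean came mainly from imatinib 1. Trim32, another NHL member, was at 12.4, 11.9 and 10.4 CPM on vehicle and 14.2, 14.7 and 14.4 on imatinib (log2 change of 0.32, adjusted p = 0.191), with imatinib above vehicle throughout but a log2 change of -0.38 when scaled to the CD3 genes. Trim3, the third of that branch, was at 31.3, 36 and 29.6 CPM on vehicle and 17.3, 23.6 and 25.3 on imatinib (log2 change of -0.55, adjusted p = 0.0576). Trim47 was at 51, 36.3 and 57.2 CPM on vehicle and 13.8, 34.4 and 26.6 on imatinib (log2 change of -0.95, adjusted p = 0.106), and overlaps the exons of Trim65, at 51.5, 41.7 and 36.6 CPM on vehicle and 30.6, 41.7 and 26.3 on imatinib (log2 change of -0.40, adjusted p = 0.206). Without imatinib 2, Trim2, Trim47 and Trim65 had adjusted p = 0.0478, 0.0494 and 0.039, lower on imatinib except for Trim2.

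The remaining 11 had adjusted p-values of 0.18 to 0.965, and their groups overlapped except for Trim68. Trim7 and Trim68 lay at log2 changes of -0.80 and -0.38 and Trim62 at -0.34. Trim13 and Trim59, anchored in the endoplasmic reticulum membrane, lay at -0.26 and 0.26. Trim23, with its ARF domain, lay at -0.017 and Trim37, with its MATH domain, at 0.14. Trim45 and Trim46 lay at 0.31 and 0.31, and Trim15 and Trim31 of the MHC region at -0.078 and -0.077. Trim59, Trim37, Trim45 and Trim46, positive here, were negative when scaled to the CD3 genes.

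**Figure D4:**
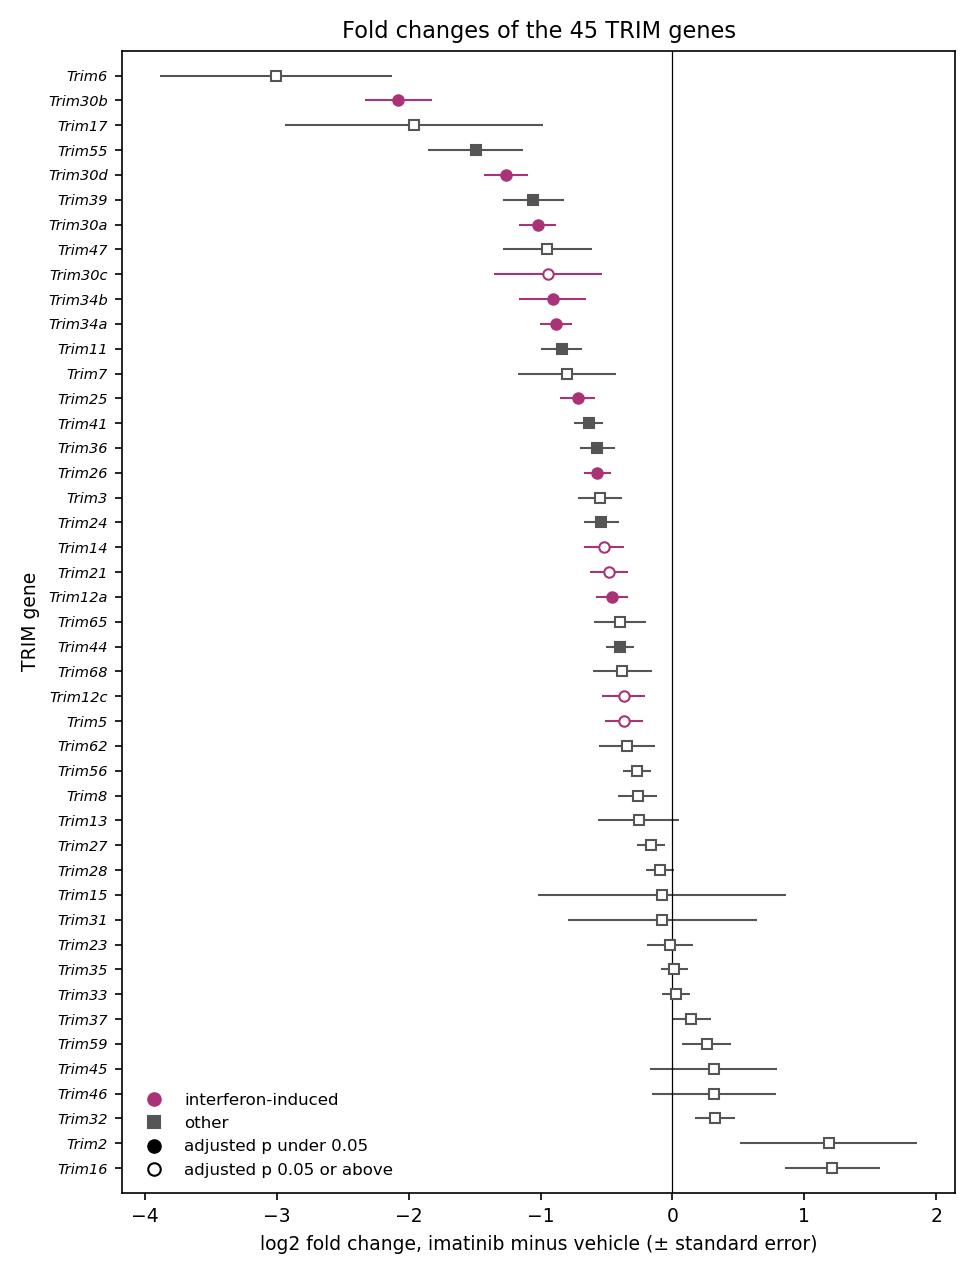
Log2 fold change of imatinib against vehicle for all 45 TRIM genes, with bars of 1 standard error; circles are interferon-induced genes, squares the others, and filled symbols passed an adjusted p of 0.05. All 15 filled symbols lie below 0, 8 of them interferon-induced, and the open symbols at the top and bottom have wide bars.

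The fold changes were also read by promoter and by position, as a description, beside 8.42% of all genes tested that were called lower. The 8 interferon-induced members with the promoter motif had a median log2 fold change of -0.52, and 5 of them fell. Of these 8, 4 fell without vehicle 1, vehicle 2, vehicle 3, imatinib 1 or imatinib 3, and 7 fell without imatinib 2. The 4 searched members without the motif had a median of -0.93, and 3 fell. Among them Trim30b, Trim30c and Trim34b were thinly counted, at 2.58 to 16.6 CPM over the libraries, and Trim30c overlapped between groups. The members with the motif were at 20.3 to 239 CPM. A difference by motif was not tested. Of these 4, 1 fell without imatinib 3 and 2 without any other single library. With scaling to the CD3 genes 8 of the 8 and 4 of the 4 fell, against 4678 of all 16621 genes tested. Trim30a and Trim30d, whose windows are identical, had log2 fold changes of -1.02 and -1.26, and Trim5 and Trim12a, identical as well, had -0.37 and -0.46. By position, 6 of the 10 members of the chromosome 7 cluster fell (median -0.93), as did 2 of the 4 on chromosome 17 and 3 of the 9 on chromosome 11. The cluster count was 4 without vehicle 1, vehicle 2, vehicle 3, imatinib 1 or imatinib 3. Without imatinib 3 the counts on chromosomes 17 and 11 were 1 and 1. Without imatinib 2 the cluster had 7 and chromosome 11 had 6. With scaling to the CD3 genes 10 of the cluster and 7 on chromosome 11 fell, again against 4678 of all 16621 genes tested. The thinly counted Trim6 is in the cluster median and the cluster counts of 7 and 10, and Trim17 in the chromosome 11 counts of 6 and 7.

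By C-terminal domain, 3 of 14 PRY-SPRY members off the interferon list fell, with a median of -0.52, against 8.42% of all genes tested. The count was 1 without imatinib 3, 7 without imatinib 2, 5 with DESeq2 and 10 with scaling to the CD3 genes. The thinly counted Trim6 is among the 7, the 5 and the 10, and Trim17 among the 7 and the 10. Of all 16621 genes tested, 2024 were lower with DESeq2 and 4678 with scaling to the CD3 genes. Of 3 microtubule-binding COS-box members 2 fell, Trim36 and Trim55, but none did without vehicle 1, vehicle 2, vehicle 3, imatinib 1 or imatinib 3. None of the 3 NHL members passed, and 1 (Trim3) did with library totals, scaling to the CD3 genes, DESeq2 or other filters on low counts.

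TRIM proteins that carry other symbols were measured as well. Pml (TRIM19), the interferon-induced scaffold of nuclear bodies, was at 148, 142 and 145 CPM on vehicle and 70.3, 90.8 and 90.5 on imatinib and fell (log2 change of -0.79, SE 0.12, adjusted p = 0.00836). Mid1, a microtubule-associated ligase mutated in Opitz syndrome, was at 77.9, 73.4 and 88.9 CPM on vehicle and 20.7, 53.8 and 43.3 on imatinib (log2 change of -1.03, SE 0.33, adjusted p = 0.0828). Mid1 did not pass, although the groups were apart. Its close relative Mid2 was at 0.857, 0.727 and 1.46 CPM on vehicle and 2.62, 0.989 and 2.58 on imatinib (log2 change of 1.02, SE 0.54, adjusted p = 0.235), and Mefv, which encodes the inflammasome protein pyrin, at 2.73, 5.95 and 9.26 CPM on vehicle and 4.2, 8.66 and 2.36 on imatinib (log2 change of -0.24, SE 0.56, adjusted p = 0.813). The groups overlapped for Mid2 and Mefv. Mid1 passed without imatinib 1 or imatinib 2 (adjusted p = 0.0221 and 0.0402). It also passed with DESeq2, limma voom and scaling to the CD3 genes (adjusted p = 0.00336, 0.0331 and 6.63e-05, in that order).

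Beside the TRIM genes, other interferon-induced genes were measured, and a difference between them and the TRIM genes was not tested. Of 34 on a fixed list, 22 fell, none rose and 12 did not pass (8.42% of all genes tested were called lower and 6.15% higher), around a median of -1.35 against -0.72 for the interferon-induced TRIM genes. Without vehicle 1, vehicle 2 or vehicle 3, 12 fell, and without imatinib 3, 11 did. Mx1, a gene of the MX family of GTPases, was at 132, 141 and 165 CPM on vehicle and 11.2, 24.2 and 20.2 on imatinib (log2 change of -2.98, SE 0.28, adjusted p = 0.00359). Oas2, a synthase that activates RNase L, was at 182, 217 and 205 CPM on vehicle and 19.5, 45.9 and 38.5 on imatinib (log2 change of -2.54, SE 0.30, adjusted p = 0.00681). Mx2 and Oasl1 fell as well (log2 fold changes -2.30 and -1.83, adjusted p = 0.0144 and 0.0404). Mx2 lost its call without vehicle 2 (adjusted p = 0.0518). Oasl1 lost its call without vehicle 1, vehicle 2, vehicle 3 and imatinib 3 (adjusted p = 0.103, 0.0744, 0.108 and 0.12, in that order). Both calls were also lost with no filter on low counts (adjusted p = 0.0554 and 0.123).

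Of 18 genes of nucleic acid sensing, among them the targets of TRIM proteins, 8 fell, none rose and 10 did not pass (median -0.36), against 8.42% of all genes tested called lower and 6.15% higher. Without any 1 vehicle library 4 fell, and without imatinib 3 it was 3. With scaling to the CD3 genes it was 14, against 4678 of all 16621 genes tested. Dhx58, a regulator of RIG-I-like receptors, was at 113, 95.2 and 138 CPM on vehicle and 24.5, 57.1 and 32.8 on imatinib (log2 change of -1.60, SE 0.32, adjusted p = 0.0248). Cgas, the cytosolic DNA sensor, fell (log2 change of -1.26, SE 0.20, adjusted p = 0.00838). Ifih1, the RNA sensor MDA5, and Tlr9, the endosomal receptor for bacterial DNA, fell by log2 changes of -1.23 and -0.87 (adjusted p = 0.017 and 0.0092). Dhx58 lost its call without vehicle 1, vehicle 2, vehicle 3 and imatinib 3 (adjusted p = 0.0712, 0.0555, 0.0723 and 0.0844, in that order). Ifih1 lost its call without vehicle 1, vehicle 3 and imatinib 3 (adjusted p = 0.052, 0.0543 and 0.0692, in that order). With no filter on low counts Dhx58 had adjusted p = 0.0924.

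Of 18 genes of interferons, their receptors and signalling, 14 were tested, of which 5 fell, 1 rose and 8 did not pass (median -0.39), again against 8.42% of all genes tested called lower and 6.15% higher. Without vehicle 1, vehicle 2, vehicle 3, imatinib 1 and imatinib 3 in turn, 2, 2, 1, 3 and 1 fell. With scaling to the CD3 genes 10 did, against 4678 of all 16621 genes tested. Stat2, a subunit of ISGF3, was at 303, 283 and 319 CPM on vehicle and 86.2, 148 and 119 on imatinib (log2 change of -1.36, SE 0.18, adjusted p = 0.00671). The feedback inhibitors Usp18 and Socs1 fell by log2 changes of -1.61 and -0.66 (adjusted p = 0.035 and 0.039). Of the listed genes 3 had no read in any library. Usp18 lost its call without vehicle 1, vehicle 2, vehicle 3, imatinib 1 and imatinib 3 (adjusted p = 0.0977, 0.0864, 0.0981, 0.0506 and 0.107, in that order). Socs1 lost its call without vehicle 1, vehicle 2, vehicle 3, imatinib 1 and imatinib 3 (adjusted p = 0.126, 0.0806, 0.0633, 0.0903 and 0.0952, in that order). With no filter on low counts Usp18 had adjusted p = 0.128.

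**Figure D5:**
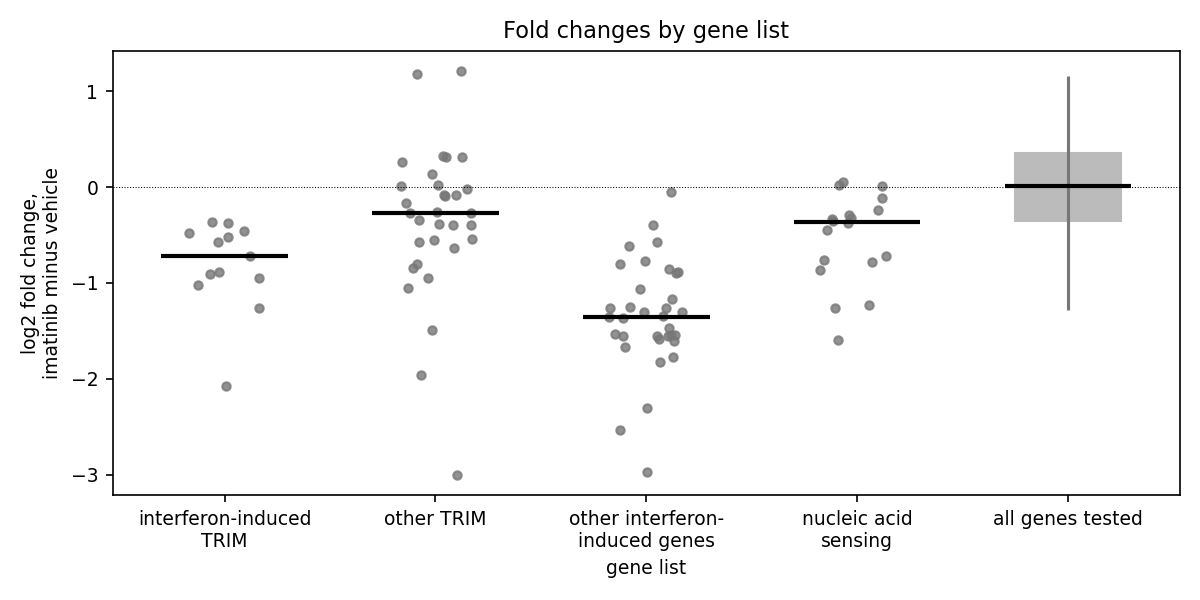
Log2 fold change of imatinib against vehicle by gene list, with a point per gene and a bar at the median; for all genes tested the box spans the 25th to 75th percentile and the line the 5th to 95th. The medians are -0.72 for interferon-induced TRIM genes, -0.27 for other TRIM genes, -1.35 for interferon-induced genes outside the family, -0.36 for nucleic acid sensing and 0.014 for all genes.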

How the data were processed

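The deposited table holds raw read counts per gene. The authors made these counts with STAR and featureCounts on build GRCm38. How strand and multi-mapping reads were handled is not given in the sources used here. Of 57332 rows, 3016 carry no gene name and were dropped (0.118% to 0.158% of counts). Exact repeats (1013) were taken a single time, and rows sharing 1 of 78 symbols were added up. Another 3 columns could not be tied to a sample and stayed unused. No pair of libraries agreed within sampling noise (lowest chi-square 37.1 per gene).

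edgeR 4.0.16 (R 4.3.3) with TMM scaling, the default filter on low counts and robust quasi-likelihood tests compared imatinib with vehicle over 16621 genes, with Benjamini-Hochberg adjustment over all of them, and gave every adjusted p of single genes. Standard errors were derived from the fold change and its F statistic. The coefficient of variation between libraries was 29.1%. The script was tested on simulated data. The paper's DESeq2 was an alternative (1.42.0), beside limma voom 3.58.1, other scalings, other filters, a replicate block and leaving out each library. Tables used Python 3.11.15 and pandas 2.3.3; promoters came from RefSeq (GRCm38.p6) and positions from GENCODE M21.

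The members and gene lists were chosen with earlier results of these data known. All members were accounted for. The naming rule took each interferon-induced member, each other member past the test and the 6 most counted of the rest, all TRIM proteins with other symbols, up to 4 called genes with the largest fold change of each related list, and marker genes. A gene that this rule would name is not reported here. Trim6, Trim17, Trim16, Trim2, Trim32, Trim3, Trim47 and Trim65 fall outside that rule and were picked with their values in view, as were the genes given by fold change alone.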

Additional observations from a re-analysis of the deposited data

How the results depend on the processing

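All 13 interferon-induced members kept a negative log2 fold change under every alternative run, and no call of a TRIM gene changed direction between settings. Trim30a, Trim30b, Trim30d, Trim34a and Trim41 were called in all 14 alternatives, Trim41 close to the threshold (adjusted p of at most 0.0496). Beyond leaving out a library, calls of single members were gained 33 times and lost 12 times.

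Scaling to the Cd3d, Cd3e and Cd3g counts moved the median of all genes to -0.72. It gave 4678 genes lower and 135 higher, with 30 TRIM members lower, 13 of them interferon-induced (median -1.43) and 17 other (median -1.02). Relative to all genes these medians lie at -0.72 and -0.30, close to -0.73 and -0.28 with TMM. On that scale 14 sensing and 10 signalling genes were lower, and Trim32, Trim37, Trim59, Trim45, Trim46, Trim33 and Trim35, positive with TMM, turned negative. DESeq2 called 1634 genes higher and 1 TRIM member higher, Trim16 (adjusted p = 0.0154). limma voom also called 1 higher, Trim16 (adjusted p = 0.0435), and put the median of the other members at -0.35. The wider interferon list, which adds Trim6, Trim35 and Trim56, gave 8 of 16 lower. Leaving out 11 members that share at least 5% of their sequence or exons with other genes, an alternative chosen after seeing the data, left 5 of 7 interferon-induced members lower. Dropping the minimum of 60 reads added no tested member.

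Same-numbered libraries did not deviate together (correlations of -0.217, -0.049 and -0.072). Vehicle and imatinib libraries with different numbers had correlations of -0.126 to 0.194. The numbers thus showed no pairing, which so few correlations cannot exclude. With the replicate block 437 genes were lower and 173 higher, 6 TRIM members were lower (4 interferon-induced, 2 other), and 13, 4 and 1 genes were lower among the other interferon-induced, sensing and signalling genes.

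Leaving out 1 library at a time gave 503 to 1780 genes lower and 182 to 1171 higher, 7 to 20 TRIM members lower and 0 to 1 higher, 5 to 10 interferon-induced and 2 to 10 other members lower. The medians ranged from -0.87 to -0.60 and from -0.37 to -0.26. The most calls came without imatinib 2 and the fewest TRIM calls without imatinib 3. Genes lower numbered 11 to 33 among other interferon-induced genes, 3 to 11 for sensing and 1 to 6 for signalling. The share of TRIM reads differed between groups by 6.99 to 9.77 percentage points. Trim6, Trim15 and Trim17 rest on 97, 97 and 81 reads over all libraries.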
